A study of Mus musculus with 20 samples.

Results

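The transcripts of 7 enzymes of hydrogen sulfide metabolism were followed in mouse liver. The genes were Sqor, Ethe1, Tst and Suox, which act in sulfide oxidation, and Mpst, Cbs and Cth, which produce the gas. They were chosen by function, as all probes whose platform annotation carried one of these 7 symbols among the 19057 genes with a named probe. The array held 9 probes for them of 45281 in all, and 8 of these passed the detection filter, at least 1 for each of the 7 genes. No difference between groups was called for any of the 7, and the groups overlapped for every gene in every comparison.

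RNA from 20 livers of female mice was hybridised to Illumina bead arrays, 1 array for each mouse and 5 mice for each of 4 groups. Wild-type B6 mice without treatment were 215 to 217 days old. The other 3 groups were B6.Pdss2(kd/kd) mice, homozygous for a missense mutation of Pdss2, which encodes a subunit of the enzyme that makes the side chain of coenzyme Q. They carried a recombinant chromosome from the original strain and stood at backcross generation 13 to B6. Untreated mutants were 129 to 143 days old. Probucol, a lipid-lowering antioxidant drug, was given at 1% of the diet, an estimated 95 mg per kg body weight a day, to mutants of 140 to 145 days. Coenzyme Q10 (CoQ10) was given at an estimated 400 mg per kg a day to mutants of 153 to 156 days. Wild-type and mutant ages did not overlap, so genotype and age cannot be told apart, and the same holds for CoQ10 treatment and age. A treatment could be compared with no treatment in mutants alone, because no wild-type mouse was treated. Comparisons of treated mutants with wild type combine genotype, treatment and age. The series title concerns probucol and the renal and metabolic effects of coenzyme Q deficiency. The livers are called wild type, untreated, probucol and CoQ10 from here on.

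Labels of 10 arrays contradicted themselves. The treatment field and the source name put 5 livers in the probucol group and 5 in the untreated group, whereas the prefix of the array name has these exchanged. The treatment field was used. The labels also give urine albumin, which was 0.84 to 1.86 mg in 24 h for the mice that the treatment field names probucol, 13.52 to 57.34 for those it names untreated and 0.14 to 0.2 in wild type, with none for CoQ10. Their glomerular nephritis scores were 0 to 3, 2 to 4 and 0 to 1 in the same order, and 0 to 2 in CoQ10 mice. Wild-type and CoQ10 livers, the test for any difference among groups and the mean of the 3 mutant groups do not depend on this choice. Every signed value for probucol or untreated livers does.

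Hydrogen sulfide is made from cysteine and homocysteine by cystathionine beta-synthase (Cbs) and cystathionine gamma-lyase (Cth), and from 3-mercaptopyruvate by its sulfurtransferase (Mpst). In mitochondria, sulfide:quinone oxidoreductase (Sqor) oxidises it and passes the electrons to coenzyme Q, so this step draws on the same quinone pool as the respiratory chain. The persulfide formed is oxidised to sulfite by Ethe1, rhodanese (Tst) moves sulfur between sulfite, persulfide and thiosulfate, and sulfite oxidase (Suox), a molybdenum enzyme, makes sulfate. Liver is rich in all of these steps.

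Promoter windows from 250 bases before to 50 bases after the transcription start were read from RefSeq for 5 of the 7 genes (build GRCm38.p6). Windows of 3 genes are shown, for the enzyme that reduces coenzyme Q (Sqor), for the gene whose level moved most with other members from liver to liver (Suox) and for the gene with the smallest spread between livers (Cbs). They lie at chr2:122771463-122771762 on the plus strand, chr10:128673869-128674168 on the minus strand and chr17:31637156-31637455 on the minus strand. Capitals mark the GC box letters GGGCGG and the CCAAT letters, each on either strand, with overlapping matches counted separately.
Sqor: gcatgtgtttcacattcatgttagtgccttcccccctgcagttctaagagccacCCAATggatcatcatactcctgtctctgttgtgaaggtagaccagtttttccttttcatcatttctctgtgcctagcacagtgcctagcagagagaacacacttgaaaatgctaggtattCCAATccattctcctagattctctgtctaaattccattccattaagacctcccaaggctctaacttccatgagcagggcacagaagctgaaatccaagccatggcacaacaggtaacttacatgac
Suox: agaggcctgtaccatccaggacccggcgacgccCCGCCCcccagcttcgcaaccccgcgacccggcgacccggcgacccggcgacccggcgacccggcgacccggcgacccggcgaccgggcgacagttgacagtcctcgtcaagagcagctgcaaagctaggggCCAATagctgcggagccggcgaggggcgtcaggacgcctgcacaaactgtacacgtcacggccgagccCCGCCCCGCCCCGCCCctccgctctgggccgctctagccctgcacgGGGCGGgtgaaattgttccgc
Cbs: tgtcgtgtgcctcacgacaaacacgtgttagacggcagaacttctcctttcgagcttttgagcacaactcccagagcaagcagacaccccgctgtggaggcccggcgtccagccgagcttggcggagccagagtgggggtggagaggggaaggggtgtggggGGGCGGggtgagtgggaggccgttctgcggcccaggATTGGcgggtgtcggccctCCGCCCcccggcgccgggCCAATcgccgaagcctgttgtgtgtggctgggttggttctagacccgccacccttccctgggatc
The Sqor window had a GC content of 45.0%, no CG dinucleotide, 0 GC boxes and 2 CCAAT matches. The Suox window had a GC content of 73.3%, 40 CG dinucleotides, 5 GC boxes of which 3 overlap in a run, and 1 CCAAT match. The Cbs window lay between, at 66.7% GC with 22 CG dinucleotides, 2 GC boxes and 2 CCAAT matches. Of all 32851 mouse promoter windows of this length, 35.7% held a GC box, 37.4% a CCAAT match and 13.6% the TATA letters TATAAA, and the median GC content was 52.7%. None of the 3 windows held TATAAA. The letters TGACNNNGC, a core of the antioxidant response element, were in 12.4% of all windows and in none of these 3. Among the windows not shown, 1 of the 3 of Mpst held a match and the 2 of Ethe1 held none. Tst and Mpst are neighbours on chromosome 15, each next to the other among protein-coding genes. Suox lies on the chromosome of Pdss2, with 702 protein-coding genes between them in the gene order.

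Between 12268 and 15003 probes were detected on each array, and the median raw intensity of an array ran from 195.7 to 271.5. Of 6 hepatocyte markers, Alb, Ttr, Apoa1 and Cps1 were kept, Fgb was not, and Tat was detected on no array. The kidney marker Umod was also detected on none. On the second principal component, untreated replicates 1 and 4 (14.9 and 12.7) stood apart from the other untreated livers (-17.3 to -7.05). In the serum protein gene Apcs, probucol replicates 1, 2 and 4 were at 12.09 to 12.53, apart from replicates 3 and 5 at 10.93 and 11.23. That split was made on Apcs alone. On the second principal component, probucol replicates 1 to 5 were at 17.8, 4.5, 12.2, 23 and -9.75, with replicate 3 inside the range of replicates 1, 2 and 4. Counts of members by direction, and the differences that moved most, are also given without these untreated or these probucol livers. This choice was made after seeing the data. Without the 3 probucol livers, only replicates 3 and 5 remain in that group. These are bulk samples, in which fewer cells of a type and less RNA per cell cannot be told apart.

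All levels that follow are background-corrected, quantile-normalised intensities on the log2 scale, for the brighter probe of a gene, in order of replicates 1 to 5. Differences are in log2 units ± SE from limma over all 15096 kept probes, and a difference was called at a Benjamini-Hochberg adjusted p under 0.05.

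Sqor, the enzyme that hands electrons from sulfide to coenzyme Q, was at 10.74, 11.21, 10.97, 10.66 and 11.30 in wild-type livers. In untreated mutants it was at 11.10, 10.57, 10.73, 11.32 and 10.59. The 2 untreated livers that stood apart were the 2 highest of their group, and the group spanned the whole wild-type range. Probucol livers lay at 10.75, 10.91, 10.79, 10.79 and 11.22. CoQ10 livers lay at 11.22, 10.64, 10.96, 11.06 and 11.23. The 4 groups overlapped throughout, with means from 10.86 ± 0.33 (SD, n = 5) in untreated to 11.02 ± 0.24 in CoQ10 livers. Untreated minus wild type was -0.11 ± 0.17 (95% interval -0.46 to 0.23) and CoQ10 minus untreated 0.16 ± 0.17 (-0.18 to 0.51), with limma adjusted p = 0.999 and 0.839. Without untreated replicates 1 and 4 these became -0.35 and 0.39, neither called (adjusted p = 0.999 and 0.292). 

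Ethe1, the persulfide dioxygenase, was at 12.14, 11.67, 12.34, 10.90 and 12.04 in wild-type livers. Replicate 4 lay lowest, well under the other 4. Untreated livers were at 11.93, 11.95, 11.72, 11.39 and 11.41. Probucol livers were at 11.17, 11.34, 12.16, 10.78 and 12.09, so that replicates 1, 2 and 4, which also stood apart in Apcs, were the lower ones. CoQ10 livers were at 12.06, 12.64, 11.69, 12.13 and 11.89, and replicate 2 held the highest value of all 20. The groups overlapped in each comparison. CoQ10 livers were on average above probucol livers by 0.58 ± 0.27 (interval 0.02 to 1.14, a fold of 1.49), a difference with unadjusted p = 0.0440 that was not called (limma adjusted p = 0.483). Within each number that the array names carry, the same difference ran from -0.07 to 1.30 and was above 0 in 3 of 4. It was -0.04 once probucol replicates 1, 2 and 4 were left out. CoQ10 minus untreated was 0.40 ± 0.27 and untreated minus wild type -0.14 ± 0.27, neither called (adjusted p = 0.698 and 0.999). Without wild-type replicate 4, untreated minus wild type went from -0.14 to -0.37 and probucol minus wild type from -0.31 to -0.54. CoQ10 minus wild type then went from 0.27 to 0.04, and none of these was called.

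Tst, rhodanese, gave the lowest unadjusted p of the members. Wild-type livers were at 12.71, 12.39, 12.55, 12.42 and 12.65, and untreated livers at 12.67, 12.58, 12.34, 12.88 and 12.49. These groups covered much the same range. Probucol livers were at 12.59, 12.26, 12.94, 12.50 and 12.16. CoQ10 livers were at 12.61, 12.77, 13.03, 13.02 and 12.96. Of the 5 CoQ10 livers, 4 lay above all 5 wild-type livers, while CoQ10 replicate 1 lay inside the wild-type range and probucol replicate 3 inside the CoQ10 range. CoQ10 minus probucol was 0.39 ± 0.14 (interval 0.09 to 0.68, a fold of 1.31), with unadjusted p = 0.0121 and limma adjusted p = 0.332. CoQ10 minus wild type was 0.33 ± 0.14 (0.04 to 0.63), with adjusted p = 0.298, and CoQ10 minus untreated 0.29 ± 0.14 (-0.01 to 0.58), with adjusted p = 0.545. All 3 differences were above 0 in at least 3 of the 4 array numbers, from 0.02 to 0.83 for the first and from 0.06 to 0.61 for the second. Without the 3 probucol livers the first was 0.33 (adjusted p = 0.796). With the untreated and probucol names exchanged, CoQ10 minus untreated became 0.39 (adjusted p = 0.332) and CoQ10 minus probucol 0.29 (adjusted p = 0.545). The lowest adjusted p of any member under any alternative was 0.0946, for CoQ10 minus probucol in Tst without probucol replicate 3.

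Suox, sulfite oxidase, was at 9.99, 9.53, 9.79, 9.64 and 9.58 in wild-type livers and at 9.84, 9.50, 9.48, 9.88 and 9.58 in untreated livers. Their ranges nearly coincided. Probucol livers were at 9.23, 9.16, 9.88, 9.12 and 9.57, of which replicates 1, 2 and 4 lay under every wild-type and untreated liver and replicates 3 and 5 among them. CoQ10 livers were at 9.38, 9.53, 9.79, 9.72 and 10.08 and overlapped all groups. Probucol minus wild type was -0.31 ± 0.16 (interval -0.64 to 0.01), with unadjusted p = 0.0590 and limma adjusted p = 0.427. It was 0.02 (adjusted p = 0.987) without the 3 probucol livers that stood apart. With the names exchanged, untreated minus wild type takes the value -0.31 and probucol minus wild type -0.05. CoQ10 minus wild type was -0.0043 ± 0.16 (-0.33 to 0.32).

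Among the sulfide-producing enzymes, Cbs, which also commits homocysteine to cysteine synthesis, had the narrowest spread. Its brighter probe was at 12.00, 12.11, 12.15, 11.83 and 12.12 in wild-type livers. Untreated livers were at 11.61, 12.07, 11.67, 11.83 and 11.97, so replicate 2 and replicate 5 reached the wild-type range and replicate 4 its lower end. Probucol livers were at 11.75, 12.11, 11.77, 12.14 and 11.85, and CoQ10 livers at 12.03, 11.65, 11.69, 11.70 and 12.04. Each mutant group thus held some livers at the wild-type level and some below the lowest wild-type liver. The mean of the 3 mutant groups lay 0.18 log2 units under wild type on both Cbs probes (-0.18 ± 0.10 on each), with limma adjusted p = 0.525 for the brighter and 0.567 for the other. The 2 probes followed each other over the 20 livers (Pearson r = 0.91, Spearman rho = 0.91), as 2 readings of the same RNA. Within array numbers the mean mutant difference of the brighter probe was -0.26, -0.27 and -0.23 in numbers 1, 2 and 4. In number 3 it rounded to 0.

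Cth, cystathionine gamma-lyase, varied most. Its detected probe was at 10.46, 11.08, 11.12, 10.48 and 10.70 in wild-type livers, and at 10.65, 10.19, 10.64, 11.36 and 11.07 in untreated livers. Probucol livers were at 10.08, 9.47, 11.56, 10.89 and 10.85. CoQ10 livers were at 9.92, 9.83, 11.26, 11.16 and 11.58, in a lower pair and a higher trio. The lowest and highest of the 20 livers, both in treated mutant groups, were 4.32-fold apart, while the group means differed by at most 0.21. No group difference exceeded its SE of 0.36, and the intervals were wide (untreated minus wild type 0.02, interval -0.73 to 0.76; limma adjusted p = 1). Probucol replicates 1 and 2 were the lowest 2 of their group, while replicate 4 (10.89) lay above replicate 5 (10.85). In both the probucol and the CoQ10 group, replicates 1 and 2 carried numbers 1 and 2 in the array name, and replicates 3 to 5 numbers 3 and 4. Without probucol replicates 1, 2 and 4, probucol minus wild type went from -0.20 to 0.44 and probucol minus untreated from -0.21 to 0.42. CoQ10 minus probucol went from 0.18 to -0.46. None of these was called (limma adjusted p = 0.871, 0.901 and 0.851). A difference of 0.7 log2 units between groups was therefore not excluded by these 5 livers each. A second Cth probe was detected on 0 of the 20 arrays and was not used.

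Mpst, 3-mercaptopyruvate sulfurtransferase, gave a dim probe, with a median raw intensity of 338.05 not far above the array medians, although it was detected on all 20 arrays. Wild-type livers were at 7.21, 6.48, 7.35, 6.92 and 7.32, and untreated livers at 7.10, 7.09, 7.11, 7.18 and 7.44. The untreated group was the tighter, apart from replicate 5. Probucol livers were at 6.71, 7.15, 7.39, 6.73 and 6.93, and CoQ10 livers at 6.91, 7.19, 7.39, 6.76 and 6.43. All groups overlapped, and the difference of greatest size was CoQ10 minus untreated at -0.25 ± 0.19 (interval -0.64 to 0.14; limma adjusted p = 0.744). Near background, a fold change on this scale can be compressed.

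**Figure D1:**
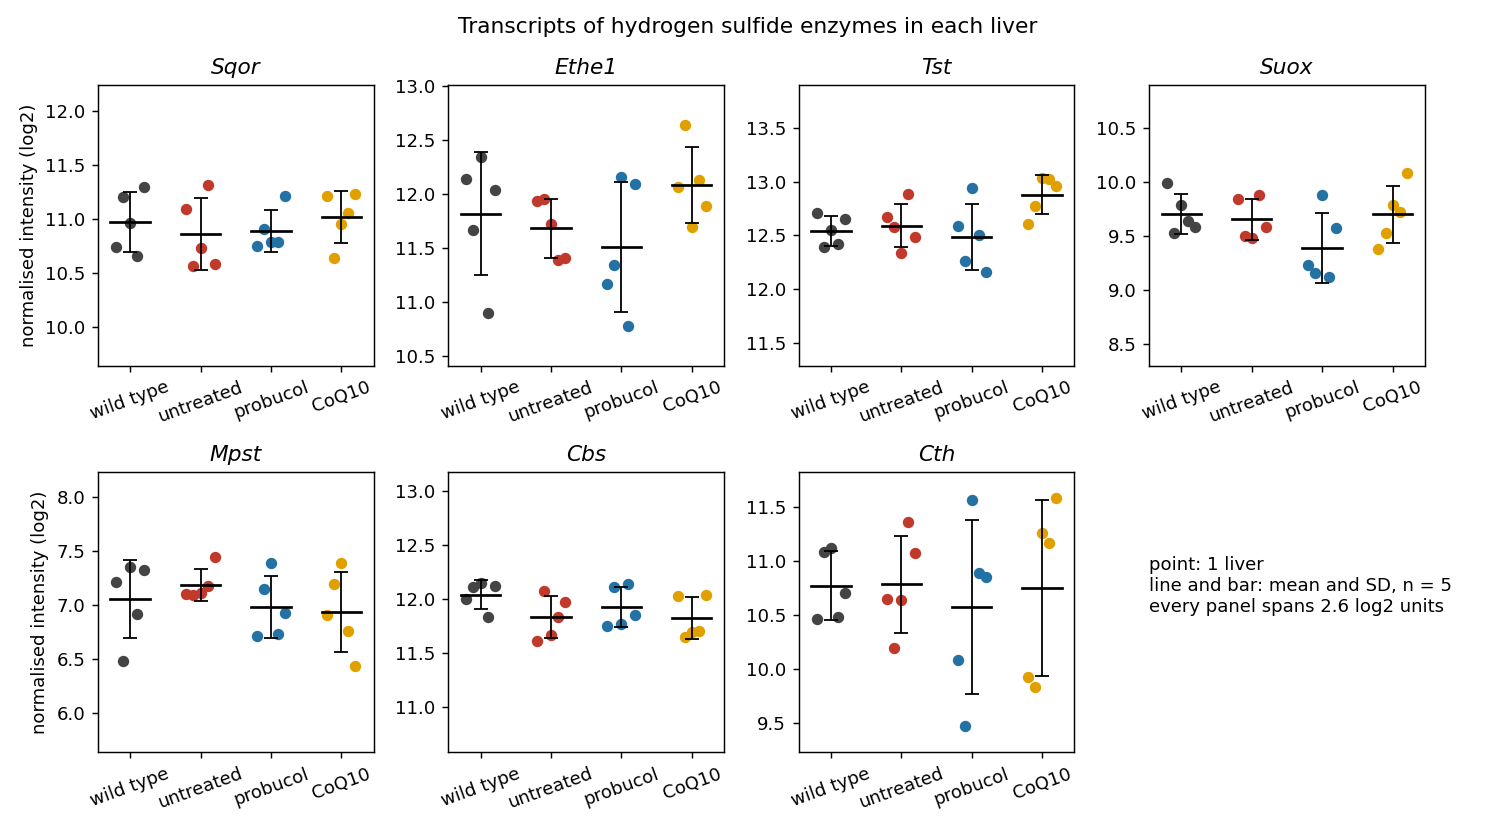
Normalised log2 intensity of the 7 genes (y axis, every panel 2.6 log2 units high) in each of 20 livers by group (x axis), with group mean and SD (n = 5). The groups overlap in every panel, the Cth points spread from 9.47 to 11.58, and 4 of 5 CoQ10 points of Tst lie above all wild-type points.

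Taken by comparison, limma called 0 of the 7 genes in each. For untreated minus wild type the background of calls was 0.119% of all kept probes, and 0 of 7 genes had an unadjusted p under 0.05, against 5.5% of probes. For probucol minus untreated, 0 of 7 were called against 0.0132%, and 0 of 7 passed unadjusted against 6.13%. CoQ10 minus untreated also gave 0 of 7 (background 0.119%) and 0 of 7 unadjusted (9.37%). In probucol minus wild type, where 0.702% of probes were called, 0 of 7 genes were, with 0 of 7 unadjusted against 12.3%. In CoQ10 minus wild type, 0 of 7 were called against 0.437%, and 1 of 7, Tst, passed unadjusted against 13.3%. In CoQ10 minus probucol, 0 of 7 were called against 0.0464%, and 2 of 7, Tst and Ethe1, passed unadjusted against 9.96%. The mean of the 3 mutant groups minus wild type called 0 of 7 against 0.384%, with 0 of 7 unadjusted against 11.6%. A test for any difference among the 4 groups called 0 of 7 against 0.51%, with 0 of 7 unadjusted against 13.1%. The lowest p in that last test was that of Tst (unadjusted p = 0.0539, limma adjusted p = 0.390).

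The groups failed to overlap for 0 of 7 members in each comparison, whereas they did so for 1.56% of kept probes in untreated minus wild type, 0.908% in probucol minus untreated, 1.68% in CoQ10 minus untreated, 3.13% in probucol minus wild type, 4.61% in CoQ10 minus wild type, 1.52% in CoQ10 minus probucol and 0.199% in the mean of the mutant groups minus wild type. In untreated minus wild type, 3 of 7 lay higher and 4 lower, with a median of -0.052 against -0.0023 over all kept probes. In CoQ10 minus untreated, 4 lay higher and 3 lower (median 0.048 against 0.004), or 3 higher with median scaling. In CoQ10 minus wild type, 3 lay higher and 4 lower (median -0.0043 against -0.0052), but 5 higher in the authors' log2 values and 4 without background correction. In CoQ10 minus probucol, 5 lay higher (median 0.18 against 0.01), and in probucol minus untreated, 5 lay lower (median -0.17 against 0.0012). In probucol minus wild type all 7 lay lower by values from -0.31 to -0.05 (median -0.12 against -0.01). However, Sqor, Tst and Cbs had the opposite sign with median scaling in place of quantile normalisation (0.0045, 0.079 and 0.011). With that scaling the median over all kept probes was 0.05, above the values of Sqor and Cbs. In the mean of the 3 mutant groups minus wild type, 1 lay higher and 6 lower (median -0.06 against -0.0085), and the count was 1 higher with median scaling, in the authors' log2 values and without background correction as well. None of these differences was called. Without probucol replicates 1, 2 and 4, only replicates 3 and 5 remained in that group. On their mean, 6 of 7 members lay higher than wild type, among them Ethe1 (0.31), Cth (0.44), Sqor (0.03) and Suox (0.02). Cbs alone lay lower (-0.23). Probucol minus untreated then had 4 higher, CoQ10 minus probucol 3 higher and the mean of the mutant groups minus wild type 4 higher, again with 0 called. Without untreated replicates 1 and 4, untreated minus wild type had 1 higher, probucol minus untreated 3 and CoQ10 minus untreated 5, while the mean of the mutant groups stayed at 1 higher. Comparisons that involve the same group share its livers, so their counts are not independent.

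**Figure D2:**
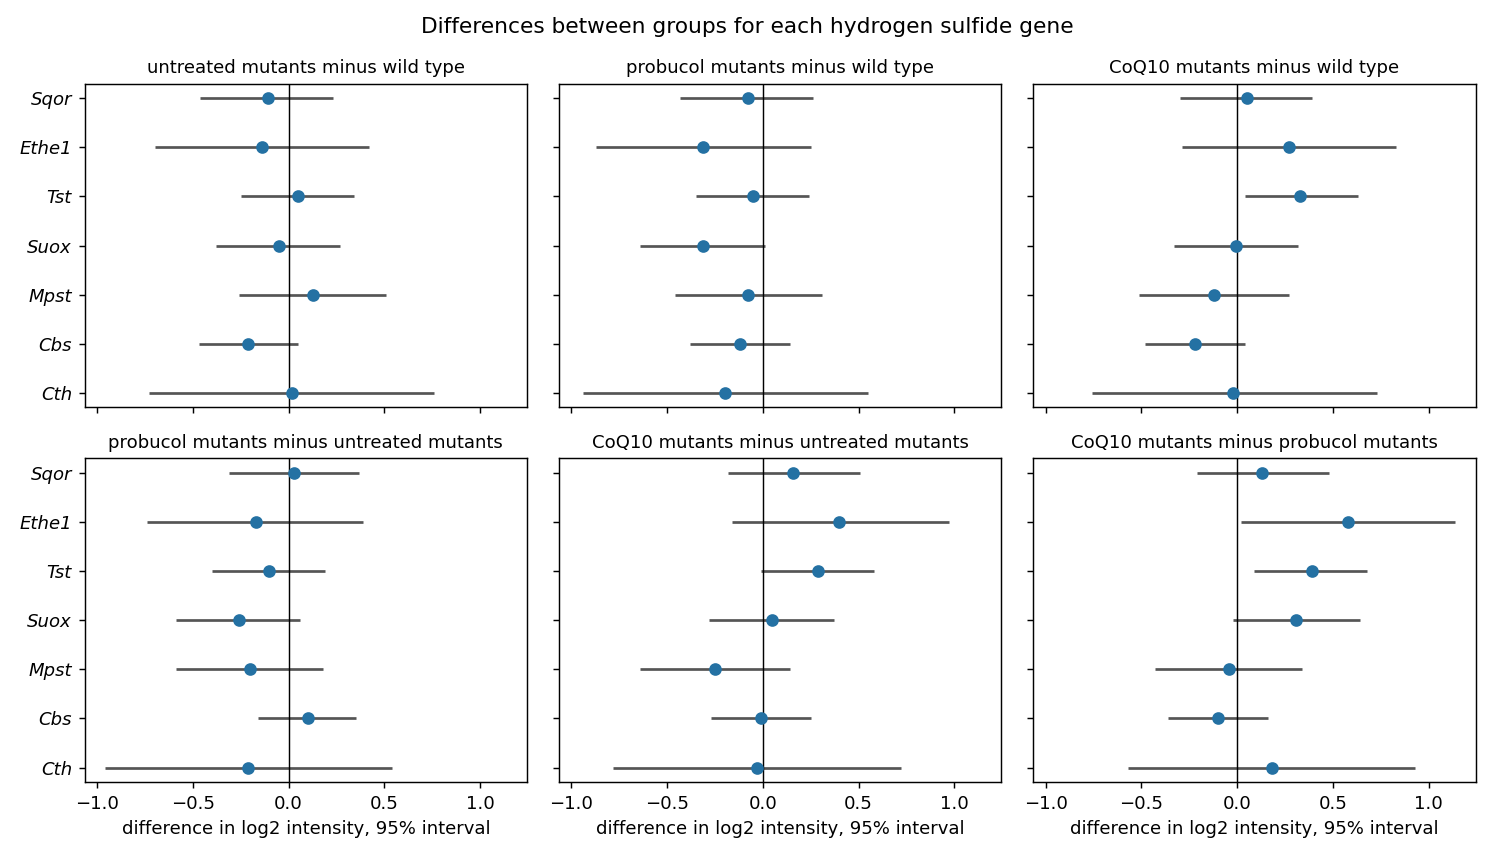
Differences between groups in log2 intensity (x axis) with 95% intervals for the 7 genes (y axis), 1 panel for each pair of groups, 5 livers a group. Intervals exclude 0 before adjustment for Tst in CoQ10 minus wild type (0.04 to 0.63) and for Tst and Ethe1 in CoQ10 minus probucol (0.09 to 0.68 and 0.02 to 1.14), and none of these was called after adjustment.

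The members differed in how much they varied between livers of the same group. The SD around group means was 0.64 for Cth, higher than in 97.9% of kept probes, and 0.47 for Ethe1, higher than in 92.5%. The remaining members were closer to the array's median SD of 0.258, with 0.31 for Mpst, 0.27 for Sqor, 0.25 for Suox and 0.22 for Tst. Cbs stood at 0.18, in percentile 14.3. Array names carry a number from 1 to 4, and each number holds 5 arrays and all 4 groups, though nothing says that it is a slide. The median count of detected probes on an array was 12519, 12910, 14414 and 13967 in numbers 1 to 4. Deviations of Cth from its group means averaged -0.29, -0.48, 0.42 and 0.35 in the same order. All mutant livers were below 0 in numbers 1 and 2 and above 0 in numbers 3 and 4. Wild-type livers did not follow this order. They were at -0.308 and 0.311 in number 1, and at 0.352, -0.285 and -0.07 in numbers 2, 3 and 4. Of the within-group sum of squares of Cth, 49.4% lay along the array number, against a median of 29.1% over kept probes. This share was at percentile 81 of kept probes. For Ethe1 the share was 26.3% and for Sqor 20.7%. With array number as a fixed term in the fit, 0 of 7 members were still called in each comparison.

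**Figure D3:**
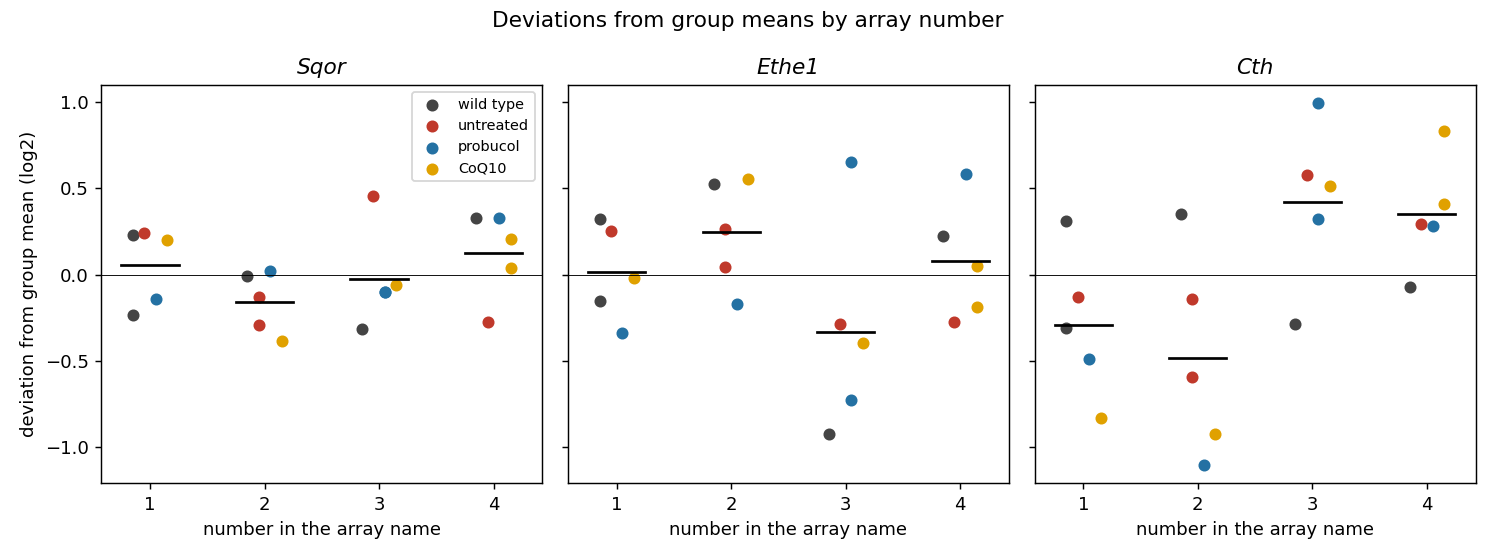
Deviation of Sqor, Ethe1 and Cth from the group mean in log2 units (y axis) for each liver, by the number in the array name (x axis), with horizontal bars at the mean of each number. Cth averages -0.29 and -0.48 in numbers 1 and 2 and 0.42 and 0.35 in numbers 3 and 4, while the Sqor means stay between -0.16 and 0.13. The Cth points of mutant livers follow this order, and those of wild-type livers do not.

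Members were then compared with each other from liver to liver, after subtraction of group means, over 20 livers and 21 pairs. Suox followed Cth (Pearson r = 0.67, permutation p = 0.00999; Spearman rho = 0.60, p = 0.0184) and Tst (r = 0.64, p = 0.0123; rho = 0.62, p = 0.0120), and Tst followed Cth (r = 0.54, p = 0.0426; rho = 0.54, p = 0.0334). Adjusted over the 21 pairs by Benjamini-Hochberg, these two-sided permutation p-values were 0.13, 0.13 and 0.298, and 0 of 21 pairs were called. Without the 2 livers farthest from the median of the first gene of a pair, r was 0.49 for Suox and Cth, 0.70 for Tst and Suox and 0.54 for Tst and Cth. With array number subtracted as well, r was 0.59, 0.60 and 0.42. For scale, 0.378% of all kept probes had a higher r with Suox than Cth had, and 0.543% a higher r than Tst had. Seen from the other gene, 5.74% of probes had a higher r with Cth than Suox had. For Tst, 1.64% had a higher r than Suox had. For Tst and Cth, the share was 4.4% seen from Tst and 11.3% seen from Cth. The neighbouring genes Tst and Mpst had r = 0.24 (permutation p = 0.323, adjusted p = 0.733). Sqor had its highest r among the members with Cth, at 0.33 (permutation p = 0.146). All pairs were read on the same 20 arrays and so share array and depth.

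**Figure D4:**
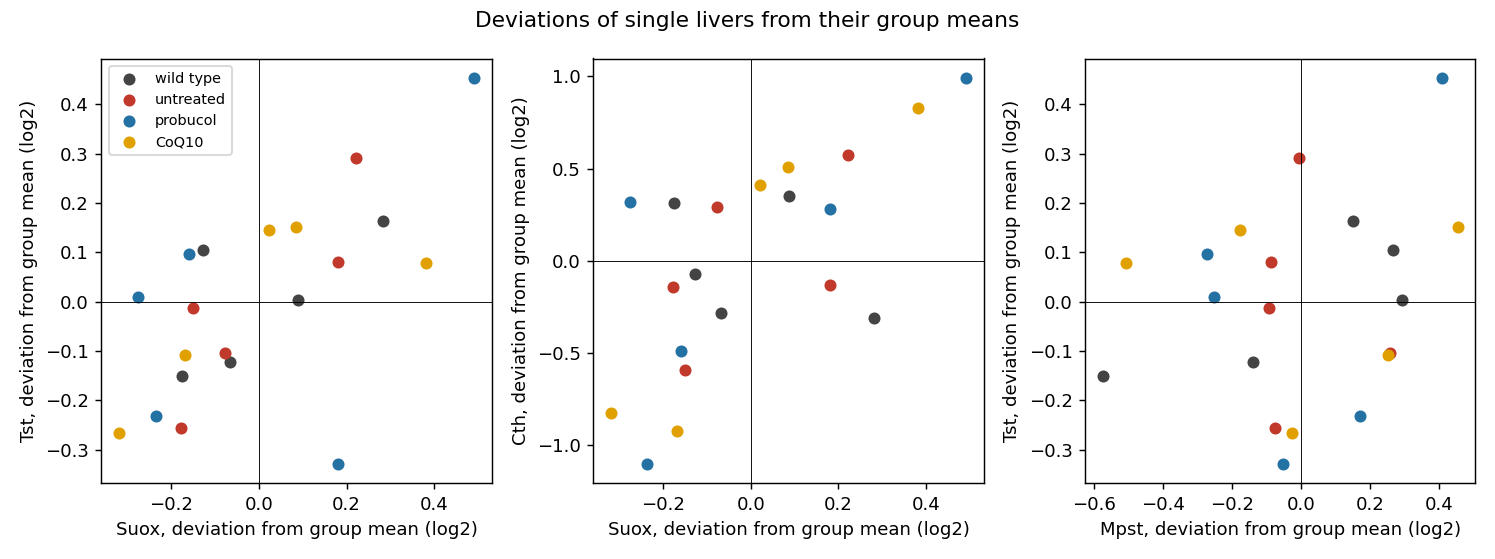
Deviations from group means in log2 units for Suox against Tst, Suox against Cth, and Mpst against Tst, 1 point for each of 20 livers, coloured by group. Pearson r is 0.64, 0.67 and 0.24, and probucol replicate 3 lies at the upper right of all 3 panels.

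Over the 20 livers, with group means left in, the genes most like each member were sought among the 9261 other genes with a named kept probe. Sqor was nearest to Txn1, which encodes thioredoxin (Pearson r = 0.75, Spearman rho = 0.77), then Ugt1a6a, a glucuronosyltransferase (0.75 and 0.71), and Rgn (0.72 and 0.66). Ethe1 was nearest to Adssl1 (0.89 and 0.89), Macrod1 (0.85 and 0.83) and Mthfd1, a folate enzyme (0.83 and 0.84). Tst was nearest to Tmem218 (0.89 and 0.92), Dolk (0.87 and 0.91) and Ppp1ca (0.85 and 0.86). For Suox they were Sucnr1, the succinate receptor (0.82 and 0.72), Polg2 (0.80 and 0.76) and Gcdh, glutaryl-CoA dehydrogenase (0.79 and 0.61). Cth had Cyp2b23, a cytochrome P450 (0.90 and 0.84), Ttc38 (0.86 and 0.82) and Sugct (0.86 and 0.73). Mpst reached lower values, with Uck2 (0.73 and 0.66), Urah (0.70 and 0.67) and Mrpl27 (0.70 and 0.64), as did Cbs, with Pnisr (0.71 and 0.69), Stim1 (0.69 and 0.57) and Zkscan1 (0.67 and 0.54). The highest of 9261 correlations is high by selection, so these values are a description with no test.

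Genes around the pathway came from 6 lists, the methionine cycle, cysteine breakdown, persulfides and sulfur transfer, glutathione, sulfate and the molybdenum cofactor, and other entries of electrons to coenzyme Q. Of 56 listed genes 42 had a kept probe. One of the 42 was called in probucol minus wild type, where 0.702% of kept probes were, and none in the other comparisons. This was Ahcy, which hydrolyses S-adenosylhomocysteine to the homocysteine that Cbs uses. Ahcy was at 14.34, 14.22, 14.27, 13.99 and 14.10 in wild-type livers and at 13.66, 13.68, 13.91, 13.59 and 13.83 in probucol livers, with no overlap, which 3.13% of all kept probes also showed. It lay 0.45 ± 0.10 lower on the log2 scale in probucol than in wild-type livers (limma adjusted p = 0.0338), and was lower within all 4 array numbers (-0.62 to -0.24). These 2 groups differ in genotype, treatment and age. CoQ10 livers, at 14.20, 14.28, 14.08, 14.21 and 14.15, and untreated livers, at 14.03, 14.03, 13.95, 13.85 and 14.08, were not called against wild type (adjusted p = 0.993 and 0.922). CoQ10 minus probucol was 0.45 ± 0.10 without overlap, as in 1.52% of kept probes, and was not called (limma adjusted p = 0.084). That difference ran from 0.33 to 0.61 within array numbers, and the second kept Ahcy probe gave 0.42 ± 0.20 (adjusted p = 0.494). The call in probucol minus wild type was limited. The second kept Ahcy probe gave 0.03 (adjusted p = 0.979), median scaling -0.29 (adjusted p = 1) and the authors' log2 values -0.41 (adjusted p = 0.0729). The fit without the 3 probucol livers that stood apart gave -0.31 (adjusted p = 0.678). With exchanged names, probucol minus wild type was -0.19 (adjusted p = 0.922). The called difference then belonged to the same livers under the name untreated. The call was also lost when any 1 of wild-type replicates 1, 2 and 3 or probucol replicates 1, 2 and 4 was left out. Summed Kupffer cell markers lay at 7618 to 9014 normalised units in wild-type and 9606 to 10770 in probucol livers (5 of 5 measured markers higher, Cd5l detected on no array). They lay at 9788 to 13251 in CoQ10 livers and 8446 to 10580 in untreated livers, where Ahcy was not called. In both, 5 of 5 were also higher than in wild type. The median Kupffer marker difference from wild type was 0.47 in CoQ10, 0.29 in probucol and 0.27 in untreated livers. Of these markers, 1 was called in CoQ10 minus wild type and 0 in each of the others. Lyve1, a sinusoidal endothelial marker, was the marker called in probucol minus wild type, 0.86 ± 0.19 higher (limma adjusted p = 0.0419). The other 3 endothelial markers were not called. Of all 4, 2 lay higher and 2 lower (median -0.0019). Their summed level was 13336 to 15009 in wild-type and 11972 to 16200 in probucol livers. Hba-a1, a red cell marker, was at -0.70 ± 0.30 and Reln, a stellate cell marker, at -0.44 ± 0.14, neither called (limma adjusted p = 0.347 and 0.181). Of 2 red cell markers measured both lay lower, and of 4 stellate cell and matrix markers 3 lay lower and 1 higher. The part of these markers in the result was not tested.

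In the methionine cycle list, 6 of 10 genes were measured, and apart from Ahcy none was called in any comparison. Of the cysteine breakdown and taurine list, 4 of 7 were measured and 0 called. All 4 lay lower in probucol than in wild-type livers (median -0.47, against -0.01 over all kept probes), namely Fmo1 (-0.53 ± 0.14, limma adjusted p = 0.0726), Cdo1, the cysteine dioxygenase (-0.41 ± 0.13, 0.175), Csad, which acts in taurine synthesis (-0.90 ± 0.51, 0.506), and Got2 (-0.18 ± 0.13, 0.630). Without probucol replicates 1, 2 and 4 the median was -0.19 and 3 of 4 lay lower, with Fmo1 at -0.35, Cdo1 at -0.23, Got2 at -0.16 and Csad at 0.22, none called. Csad was 1.30 ± 0.51 higher in CoQ10 than in untreated livers without being called (adjusted p = 0.390), and 0.94 higher without untreated replicates 1 and 4 (adjusted p = 0.541). Persulfide and sulfur transfer genes, 9 of 13 measured, had 0 calls and a median of -0.055 in probucol minus wild type. Txn1, the nearest match of Sqor, was at 0.01 ± 0.18 there (adjusted p = 0.988). Glutathione genes, 7 of 9 measured, had 0 calls. Of these, Chac1, which degrades glutathione, was at -1.55 ± 0.46 in CoQ10 minus untreated (adjusted p = 0.229) and Gss, glutathione synthetase, at -0.62 ± 0.19 in CoQ10 minus probucol (adjusted p = 0.250), which was -0.14 without probucol replicates 1, 2 and 4.

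All 9 genes of the sulfate and molybdenum cofactor list were measured, with 0 calls. Mocs1 and Gphn, which act in making the cofactor that sulfite oxidase needs, were at -0.32 ± 0.09 and -0.34 ± 0.11 for the mean of the 3 mutant groups minus wild type (limma adjusted p = 0.142 and 0.178). Other enzymes that deliver electrons to coenzyme Q had 7 of 8 genes measured and 0 calls. Etfdh, which passes on electrons from fatty acid and amino acid oxidation, was at -0.39 ± 0.14 for the mean of the mutant groups minus wild type (adjusted p = 0.237) and at -0.48 ± 0.17 in CoQ10 minus wild type (adjusted p = 0.192). Prodh, proline dehydrogenase, was at 0.84 ± 0.24 in CoQ10 minus probucol (adjusted p = 0.223) and at -0.58 ± 0.24 in probucol minus untreated (adjusted p = 0.715), but at 0.17 and 0.08 without probucol replicates 1, 2 and 4. Chdh, choline dehydrogenase, had CoQ10 livers that overlapped neither untreated nor wild-type livers (-0.37 ± 0.12 and -0.36 ± 0.12), as had 1.68% and 4.61% of all kept probes, and was not called (adjusted p = 0.295 and 0.174). Without untreated replicates 1 and 4 in the fit, which changes its estimate of the spread, 4 of the 42 were called in probucol minus wild type, Ahcy, Mocs1 (-0.47), Fmo1 (-0.53) and Gphn (-0.46), the last 3 at limma adjusted p = 0.0464, 0.0499 and 0.05, the last just under the threshold before rounding. Over the 42 genes the median of probucol minus wild type was -0.06, and that of untreated minus wild type -0.018.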

How the data were processed

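Members, gene lists and tests were chosen with earlier results of these data known. The deposited bead intensity table was linear and neither background-subtracted nor scaled, judging from its values, and its detection column was a fraction that rose with intensity (rank correlation 0.990 to 0.996), taken as 1 minus the detection p. The authors' deposited log2 values, with array medians of 7.81 to 7.82, are normalised by a method not given in the sources used here, and each of the 20 columns matched its own array best. Scanner, software and genome build are not given in the sources used here. Probes were named from GEO's platform annotation: 34885 had 1 symbol, 18 several and 10378 none.

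Intensities were corrected with normexp (offset 16, background inferred from detection p), taken to log2 and quantile-normalised. Probes with detection p under 0.05 on at least 5 of 20 arrays were kept (15096, 33.3%). The brightest kept probe stood for a gene. A limma 3.58.1 fit (R 4.3.3) over 4 groups without covariates gave 7 comparisons and an F test, Benjamini-Hochberg adjusted over all kept probes. The fit was tested on simulated data. Correlations used 100000 permutations within groups. All members are named. From the wider lists, called genes or else the 3 of smallest p in each comparison are named, with the genes of the cysteine list and Txn1 added after their values were seen. For each member the 3 genes of highest r are named. Livers are separate mice, no 2 arrays were identical (highest r 0.9946), and the number of arrays limits precision. The labels tie replicate numbers to no shared litter or day, and deviations of same-numbered replicates had r of -0.32 to 0.46 over 30 pairs, 17 above 0.1. As not every pair was above 0.1, numbers were not treated as pairs, although all pairs of number 4 were (0.23 to 0.42). Alternatives were background correction, scaling, the authors' values, probe filter, array number and replicate number as blocks, exchanged names, the samples in the fit, each liver left out, and other kept probes.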

Additional observations from a re-analysis of the deposited data

Results flagged for a closer look

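Of 36 groups of 5 livers examined for a liver far from the rest, 1 was singled out, and chance gives about 1 in 20 such groups. Mpst in untreated replicate 5 was at 7.44 on the log2 scale, against 7.09 to 7.18 in the other 4 untreated livers, a gap of 0.75 of the group's range. The highest livers of the wild-type, probucol and CoQ10 groups were at 7.35, 7.39 and 7.39, and the probe is dim.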

How the results depend on the processing

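Counts of called members were 0 in all 262 recomputed comparisons, including those with a replicate block (0 in each comparison and 0 of 21 correlations), an array number block, exchanged names or any 1 liver left out (0 in each). Single member differences were recomputed 1617 times and called in 0, and their sign changed in 109. The count of correlated pairs was 2 in place of 0 when group means were not subtracted: Tst and Suox (r = 0.61) and Suox and Cth (r = 0.64), both at adjusted p = 0.0482. The cause was not tested. The Ahcy call in probucol minus wild type was kept in 22 and lost in 11 of 33 refits. The 11 include the exchange of names, which moves the called difference to untreated minus wild type. Over single livers left out, the Ahcy difference lay between -0.50 and -0.41. The count of called genes in the wider lists for probucol minus wild type ran from 0 to 4. Tst in CoQ10 minus probucol kept its sign throughout, from 0.31 to 0.50 over single livers left out. With 5 livers a group, the members' unadjusted 95% intervals reached 0.26 (Cbs) to 0.75 (Cth) log2 units to either side of a pairwise difference. Observed differences within these limits could not be called, and a call after adjustment needed more. In CoQ10 minus probucol, Tst at 0.39 and Ethe1 at 0.58 lay beyond their limits of 0.29 and 0.56. Neither was called (limma adjusted p = 0.332 and 0.483). The dim Mpst probe and the undetected second Cth probe limit those readings further.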
